A study of Mus musculus with 18 samples.

Results

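Regulatory T cells (Tregs) exposed to vesicles from leukemic spleens were compared with Tregs exposed to vesicles from control spleens, on 6 of the 18 arrays of the series. The arrays were chosen by their titles, which name the sorted subset and the vesicle source. Tregs were sorted from the spleen as YFP-positive CD4+ cells. The donor strain was Foxp3 YFP/cre, where the Foxp3 locus drives YFP and Cre, so every group carried both. They were kept for 24 h with IL2 (10 ng/ml) and small extracellular vesicles (sEVs, 50 ug/ml per the labels). LME-sEVs came from the microenvironment of spleens of Eμ-TCL1 mice with chronic lymphocytic leukemia, a model in which an immunoglobulin enhancer drives the TCL1 oncogene in B cells (3 arrays). HCME-sEVs came from healthy control spleens of C57BL/6 mice (3 arrays). Per the methods, vesicles were dosed after the yield of the spleens instead, so both groups may not have received the same dose, and dose and source cannot be told apart. The labels give no age and do not say whether the 3 arrays of a group came from separate mice or cultures, so p-values measure the spread between arrays, which may be technical. The question was which Treg transcripts differ after leukemic vesicles. The other arrays hold conventional CD4+ T cells (6) and CD8+ T cells (6) under the same contrast.

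Tregs restrain other T cells, in part through the surface receptor CTLA-4 and by taking up IL2 through a high-affinity receptor. On activation they display members of the TNF receptor family such as 4-1BB, GITR and OX40 together with inhibitory receptors such as PD-1 and TIGIT, and some acquire granzyme B. Interferons act on most cells through JAK and STAT proteins and switch on antiviral genes, interferon-inducible GTPases and the machinery that presents peptides on MHC class I. In CLL, Tregs are often expanded and activated. Chronic lymphocytic leukemia is a disease of B cells, and vesicles carry RNA and protein from the cells that shed them.

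The clearest difference was in Tnfrsf9, which encodes 4-1BB (CD137), a costimulatory TNF receptor displayed by activated T cells. The log2 signal of Tnfrsf9 was 9.41, 9.30 and 7.75 on the HCME-sEV arrays and 14.12, 12.88 and 13.01 on the LME-sEV arrays. All 3 LME-sEV arrays were thus above all 3 HCME-sEV arrays, with a wide gap between the groups. The log2 difference of Tnfrsf9 was 4.52 ± 0.54 (SE, 3 arrays against 3; 95% interval 3.25 to 5.79), a 22.9-fold difference. Without HCME-sEV array 3, the log2 difference was 3.98. The spread of the Treg arrays alone did not carry Tnfrsf9 past the threshold, since limma's adjusted p over all probe sets was 0.498. With the spread estimated over all 18 arrays, Tnfrsf9 passed with an adjusted p of 0.000288, its standard error being 0.42 in that fit.

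The effect on Tnfrsf9 differed from that in both other subsets by limma's contrast over all 18 arrays. The log2 difference of Tnfrsf9 between LME-sEVs and HCME-sEVs was 0.29 ± 0.20 (SE) in conventional CD4+ T cells and -0.10 ± 0.36 in CD8+ T cells. The Treg effect on Tnfrsf9 exceeded the CD4+ effect by 4.23 on the log2 scale (95% interval 2.95 to 5.50, adjusted p = 0.0221) and the CD8+ effect by 4.62 (3.34 to 5.89, adjusted p = 0.0128). Without HCME-sEV array 3 of the Tregs, these values were 3.69 (adjusted p = 0.0208) and 4.08 (adjusted p = 0.00858). Of 22206 probe sets, 3 (0.0135%) differed in effect between Tregs and CD4+ T cells and 2 (0.00901%) between Tregs and CD8+ T cells. Tnfrsf9 was in both sets, as was a probe set with no gene symbol in the annotation. The third was H3f3b, which encodes the replication-independent histone H3.3 as H3f3a does. The log2 signal of H3f3b in Tregs was 15.28, 15.10 and 15.05 after HCME-sEVs and 15.98, 15.98 and 15.83 after LME-sEVs. Its log2 difference was 0.79 ± 0.20 in Tregs and -1.25 ± 0.22 in CD4+ T cells, so the contrast between the subsets of 2.04 (adjusted p = 0.00801) had most of its size in the CD4+ arrays. This shared-spread test drew on arrays of unequal scatter, for the median SD within groups above background was 0.505 on the log2 scale in Tregs, 0.287 in CD4+ T cells and 0.395 in CD8+ T cells. With a weight for each subset, Tnfrsf9 kept adjusted p values of 0.0154 and 0.0176.

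**Figure D1:**
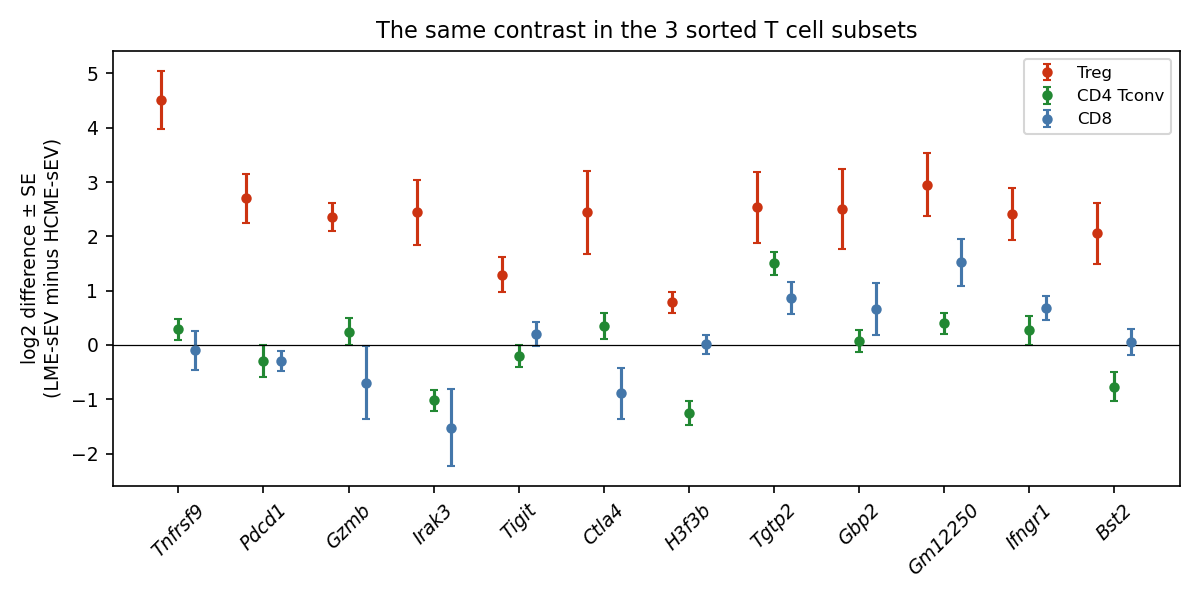
Log2 difference between LME-sEVs and HCME-sEVs (vertical axis; points are fitted differences, bars 1 SE, 3 arrays against 3) for 12 genes in Tregs (red), conventional CD4+ T cells (green) and CD8+ T cells (blue), each subset fitted by itself. Tnfrsf9 lay at 4.52 in Tregs and near 0 in the other subsets, whereas Tgtp2 was above 0 in all of them.

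Across the transcriptome, 0 of 22206 probe sets (0%) met the call rule of an adjusted p under 0.05 and more than a 2-fold difference in limma's fit to the 6 Treg arrays, in either direction. The lowest adjusted p was 0.431, for Gzmb and Zscan2. At an unadjusted p under 0.05 there were 1359 probe sets, 627 higher and 732 lower after LME-sEVs, and the methods' t-test, stated there for comparisons in general and adjusted here by Benjamini-Hochberg, also called 0. Without HCME-sEV array 3, 0 probe sets (0%) were called and 1412 had an unadjusted p under 0.05. The median probe set above background had a 95% interval of 0.859 on either side of its log2 difference, which does not include the adjustment over all probe sets. An exact permutation test of 3 arrays against 3 cannot go below a two-sided p of 0.1.

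The fit over all 18 arrays called 18 probe sets higher (0.0811%) and 8 lower (0.036%) in Tregs after LME-sEVs, of which 16 and 4 lay above background. With a weight for each subset, 4 of these 26 remained, among them Tnfrsf9 and Pdcd1 (adjusted p = 0.0475). Without HCME-sEV array 3 the unweighted fit called 44, of which 17 were among the 26. The weighted fit without that array called 5, of which 3 were among the 26. Tnfrsf9 passed there (adjusted p = 0.00109) but Pdcd1 did not (adjusted p = 0.0735). The higher genes with a symbol above background included the receptors Tnfrsf9, Pdcd1 and Ifngr1 and the genes Gpx4, which encodes the enzyme that removes lipid hydroperoxides, Chchd2 and Tomm5 of the mitochondrion, Srp14 of the signal recognition particle, Sin3b of a histone deacetylase complex and Ccng2, a cyclin linked to arrest of the cell cycle. The lower ones with a symbol were Ints6l, the formin gene Inf2 and the kallikrein gene Klk1. For Chchd2 the log2 signal was 12.82, 12.61 and 12.14 after HCME-sEVs and 14.07, 14.00 and 14.06 after LME-sEVs. The difference was 1.52 (2.87-fold), or 1.33 without HCME-sEV array 3, with no overlap of the groups. For Srp14 the log2 difference was 1.58, and 1.57 without that array. In limma's fit to the 6 Treg arrays the adjusted p was 0.756 for both. Over all 18 arrays with a weight for each subset, it was 0.0902 for Chchd2 and 0.131 for Srp14.

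Array facts bear on these values. Background was taken as the 95th percentile of the mean log2 signal of 1427 probe sets for olfactory, vomeronasal and trace amine receptors, which T cells are not known to use, and was 7.62. Above it lay 7269 probe sets. HCME-sEV array 3 had the narrowest signal range, with 2.59 on the log2 scale between its receptor background and its upper decile against 3.09 to 3.49 on the other 5 arrays. Its mean correlation with the others was 0.926, while theirs ran from 0.951 to 0.955. The 3 LME-sEV arrays lay above all HCME-sEV arrays for 562 of the 7269 probe sets (7.73%) and below them for 415 (5.71%). HCME-sEV array 3 was the lowest of its group in 355 of the 562 and the highest in 239 of the 415. The median log2 difference was 0.05 above background and -0.06 over all probe sets, and without HCME-sEV array 3 it was 0.01 and -0.01. Low signal on that array therefore moved with many of the higher values below, and most are given without it as well.

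**Figure D2:**
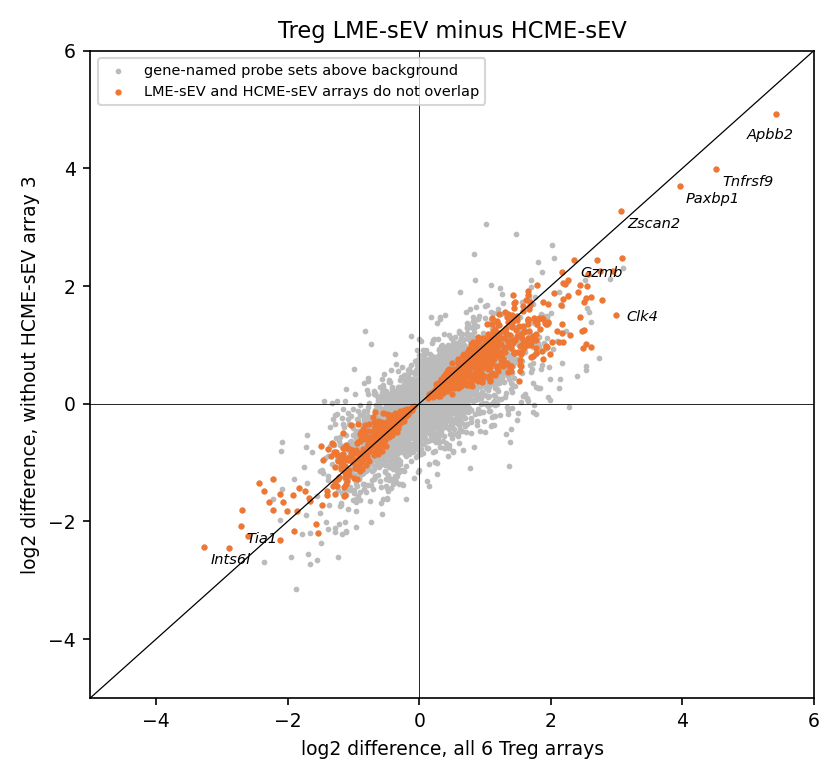
Log2 difference between LME-sEV and HCME-sEV Treg arrays with all 6 arrays (horizontal axis) and without HCME-sEV array 3 (vertical axis), for gene-named probe sets above background (grey); orange points are those whose groups do not overlap, and the line marks equality. Tnfrsf9, Zscan2 and Gzmb lay near the line, whereas Clk4 went from 2.99 to 1.5.

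The sorted cells carried Treg markers. The log2 signal of Ikzf2, which encodes the transcription factor Helios, was 11.63, 11.59 and 10.65 after HCME-sEVs and 11.67, 10.79 and 11.76 after LME-sEVs. The groups of Ikzf2 overlapped, and its log2 difference was 0.12 ± 0.38 (SE), or -0.20 without HCME-sEV array 3. Il2ra, the IL2 receptor alpha chain, read 8.20, 8.47 and 7.33 against 9.08, 7.69 and 7.93, close to background and overlapping as well, a difference of 0.23 (-0.10). Of 12 Treg markers listed, 10 were measured and 9 were above background, among them Lrrc32, Izumo1r, Gpr83 and Tnfrsf18, with only Ikzf4 below it. Foxp3 was not analysed here. Cd4 lay between 9.37 and 11.06 on the 6 arrays, Ptprc between 14.88 and 17.02, and Cd8b1 between 9.23 and 11.11, whereas Cd8a had a mean below background. The median log2 difference of the Treg markers above background was 0.12, and -0.18 without HCME-sEV array 3, so the list showed no common direction. Markers of other cells were mostly at background. Of the B-cell markers 6 of 18 measured were above it, with Cd79a and Ms4a1 below, and their mean log2 level ran from 6.71 to 6.87 after HCME-sEVs and from 6.77 to 7.14 after LME-sEVs. LME-sEV array 2 stood out for Jchain, the immunoglobulin joining chain, at 11.11 where the other 5 arrays read 5.38 to 6.08, and for Ebf1 at 9.99 where they read 7.37 to 7.91. Other members went the other way, for Sdc1 (syndecan 1) read 9.60, 9.69 and 8.22 after HCME-sEVs and 8.05, 7.15 and 7.60 after LME-sEVs, and Cd22, below background, was lower on all LME-sEV arrays at -0.74 (-0.66 without HCME-sEV array 3). Of 9 plasma-cell markers 3 were above background, with mean levels of 6.89 to 7.18 and 6.74 to 7.78 and a median log2 difference of 0.09 (-0.05). Of the CD8+ T-cell markers 6 of 11 were above background, with mean levels of 6.90 to 7.56 and 7.53 to 7.85. Their part in the results was not tested.

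Among inhibitory receptors, the largest value was that of Pdcd1. Pdcd1 encodes PD-1, an inhibitory receptor of activated T cells. The log2 signal of Pdcd1 was 8.24, 8.16 and 7.42 after HCME-sEVs and 10.99, 11.24 and 9.69 after LME-sEVs. The groups did not overlap, and the difference was 2.70 ± 0.45 (adjusted p = 0.756), or 2.44 without HCME-sEV array 3. In the fit over all 18 arrays Pdcd1 passed with an adjusted p of 0.0104. Pdcd1 did not pass in that fit with a weight for each subset and without HCME-sEV array 3 (adjusted p = 0.0735). Its effect in Tregs exceeded that in CD4+ T cells by 2.99 (adjusted p = 0.0539) and that in CD8+ T cells by 2.99 (adjusted p = 0.0953), short of the threshold. Ctla4 read 11.00, 10.48 and 7.83 against 12.16, 12.36 and 12.11. Its groups did not overlap, but the low value on HCME-sEV array 3 took the difference from 1.47 without that array to 2.44 with it (adjusted p = 0.800). Tigit, an inhibitory receptor that binds the poliovirus receptor, read 8.24, 8.28 and 7.24 against 9.35, 9.21 and 9.08, a log2 difference of 1.29 ± 0.32 (0.95 without that array). Of 21 listed inhibitory receptors and ligands 20 were measured and 13 were above background. In 3 of the 13 (Pdcd1, Ctla4 and Tigit) all LME-sEV arrays were higher, and in 0 all were lower, beside the 7.73% and 5.71% of all probe sets above background. The median log2 difference of the 13 was 0.30, and 0.17 without HCME-sEV array 3. Among members whose groups overlapped, Lgals9 (galectin 9) stood at 0.97 (0.64 without that array) and Nt5e (CD73) at 0.68 (0.80). Cd274, which encodes PD-L1, was higher on all LME-sEV arrays at 1.43 (1.14) but had a mean below background, as had Lag3 and Havcr2.

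Among TNF receptors, Tnfrsf18 (GITR) read 13.56, 13.56 and 11.84 after HCME-sEVs and 15.29, 15 and 14.20 after LME-sEVs on the log2 scale. Its difference was 1.84 ± 0.53, and 1.27 without HCME-sEV array 3, with no overlap of the groups. Tnfrsf4 (OX40) was bright on every array, at 16.39, 16.14 and 15 against 16.95, 16.67 and 16.61, and its difference of 0.90 came down to 0.48 without that array. These receptors are known as Treg costimulators. The family showed no common direction. Of 12 members and ligands above background (21 measured of 22) all LME-sEV arrays were higher in 3 and lower in 0 (7.73% and 5.71% over all above background), and the median log2 difference of 0.44 turned to -0.07 without HCME-sEV array 3. Tnfsf8 went from 1.04 to -0.03 and Tnf from 0.39 to -0.32.

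**Figure D3:**
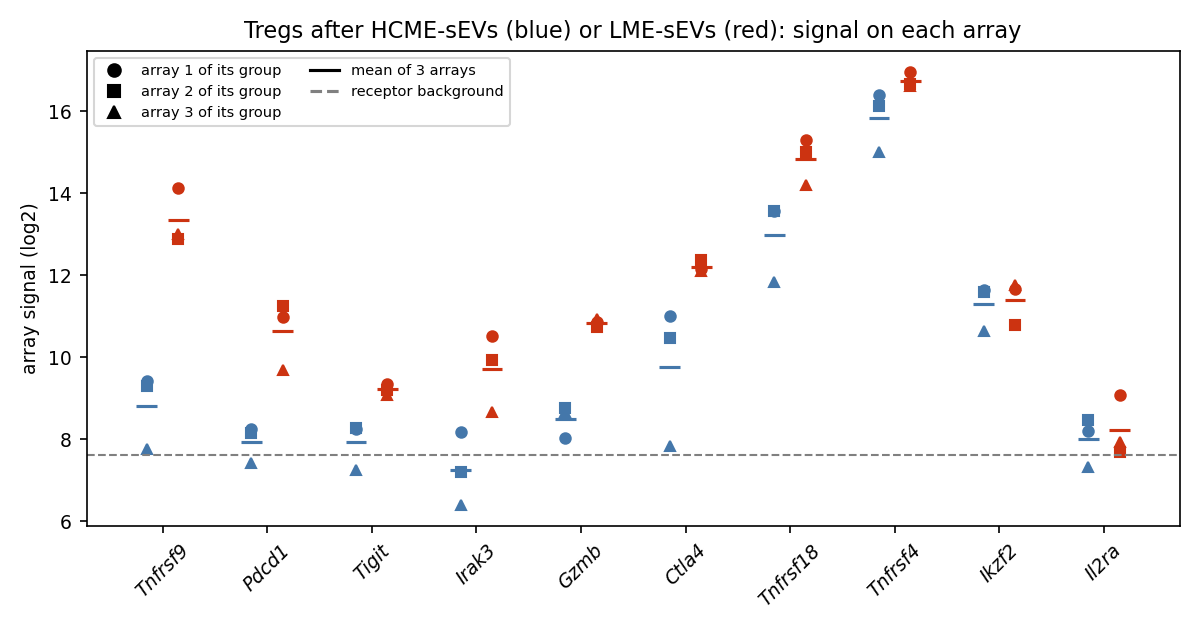
Log2 array signal (vertical axis) of 10 genes on the 6 Treg arrays; symbols mark arrays 1 to 3 of each group, which are not paired, short lines the group means and the dashed line the receptor background of 7.62. All LME-sEV points (red) lie above all HCME-sEV points (blue) for the first 8 genes and overlap for Ikzf2 and Il2ra; heights of different genes are not comparable.

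Gzmb, which encodes granzyme B, a protease of cytotoxic granules that Tregs can also use, was separated with little scatter. Its log2 signal was 8.03, 8.76 and 8.66 after HCME-sEVs and 10.85, 10.74 and 10.92 after LME-sEVs. The difference was 2.35 ± 0.26 (SE, 5.11-fold; adjusted p = 0.431), and 2.44 without HCME-sEV array 3, so that array did not make it larger. In the fit over all 18 arrays Gzmb had an adjusted p of 0.0679. Gzmk read 5.55, 5.54 and 5.98 against 7.40, 8.04 and 6.77, with a mean below background. The rest of the cytotoxic list was mixed. Of 8 members above background (21 measured of 23) all LME-sEV arrays were higher in 1, Gzmb itself, and lower in 0. Over all probe sets above background these shares were 7.73% and 5.71%. The mean was higher after LME-sEVs in 6 of the 8, with or without HCME-sEV array 3. Their median log2 difference was 0.215 (0.29 without that array), beside 0.05 (0.01) over all probe sets above background. Srgn stood at 1.30 (0.67) and Klrd1 at 0.46 (0.46), with overlapping groups, and Nkg7 at -0.32 (-0.56). Prf1, which encodes perforin, and Gzma had means below background with log2 differences of -0.34 (-0.22 without that array) and -0.12 (-0.14). Irak3, which encodes a brake on Toll-like receptor signalling, read 8.17, 7.20 and 6.40 against 10.51, 9.93 and 8.66, a difference of 2.44 ± 0.60 (2.02 without HCME-sEV array 3). Irf4, a transcription factor of activated Tregs, read 6.09, 6.0 and 6.71 against 7.0, 7.62 and 7.07, with a mean below background. Of the 9 genes the study named for Tregs, 7 were measured and 5 were above background, and in all 5 the groups did not overlap. That list was chosen by the study on these same arrays and is no independent evidence of direction. For GzmB the study also reported a rise in Treg protein, which was not examined here.

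Interferon-inducible GTPases had the highest median of the pathway lists, with wide differences between genes. No test compared the list with other genes. Of 22 listed interferon-inducible GTPases, which attack the vacuoles of intracellular microbes, 15 were measured and 10 were above background. The median log2 difference of the 10 was 0.76 (0.57 without HCME-sEV array 3), beside 0.05 (0.01) over all probe sets above background. All LME-sEV arrays were higher in 3 (Tgtp2, Gbp2 and Irgm1) and lower in 1 (Gbp8, at -0.24, or -0.29 without that array), beside the 7.73% and 5.71% given above. Gbp8 had a mean close to background. Tgtp2 read 12.92, 12.81 and 10.64 after HCME-sEVs and 14.95, 15.10 and 13.94 after LME-sEVs, a log2 difference of 2.54 ± 0.65 (adjusted p = 0.766), or 1.80 without that array. Gbp2, a guanylate-binding protein, read 8.35, 6.78 and 5.25 against 9.19, 9.84 and 8.86, a difference of 2.50, or 1.73 without it. Irgm1 read 7.82, 8.42 and 7.95 against 8.89, 11.04 and 9.25, a difference of 1.66, or 1.61 without it. Gm12250, another GTPase of the family known as Irgb10, was not on the list and was chosen after its values were seen. It read 7.94, 8.13 and 5.95 against 9.94, 10.27 and 10.66, a difference of 2.95 (2.25 without that array), and passed in the fit over all 18 arrays (adjusted p = 0.0299) but not with a weight for each subset (adjusted p = 0.0902). Relatives with overlapping groups varied, with Iigp1 at 1.81 (2.42 without that array), Igtp at 1.04 (0.66), Gbp7 at 0.40 (0.36) and Gbp3 at 0.29 (-0.08), and Irgm2 was below background. Tgtp2 has a near-identical paralog, so its signal may not be its own alone. Tgtp2 also differed in CD4+ T cells (1.5 ± 0.21, adjusted p = 0.0330), and its Treg effect was not shown to differ from that (difference 1.04, 95% interval -0.40 to 2.47, adjusted p = 0.479). For Gm12250 the log2 difference was 0.40 ± 0.19 in CD4+ T cells and 1.52 ± 0.43 in CD8+ T cells. By limma's contrast over all 18 arrays, its Treg effect was not shown to differ from either. The difference was 2.55 for CD4+ (adjusted p = 0.127) and 1.43 for CD8+ T cells (adjusted p = 0.660). For Irgm1 the log2 difference was 0.73 ± 0.23 in CD4+ T cells and 0.82 ± 0.23 in CD8+ T cells. Its largest Treg value, 11.04, was on LME-sEV array 2.

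The promoters of 4 GTPase genes above background that were higher on all LME-sEV arrays (Gm12250 among them) are shown because interferon-activated factors bind short motifs there. The plan was to print only promoters that hold a match, so a match in each of the 4 is no result. Each is the RefSeq window on GRCm38.p6 of 300 bases around the start, most of it upstream, and capitals mark the core of the interferon-stimulated response element (ISRE, GAAANNGAA) and the gamma-activated site (GAS, TTCNNNGAA), searched on both strands. The windows are chr3:142620413-142620712, plus strand for Gbp2, chr11:49064163-49064462, minus strand for Tgtp2, chr11:48871371-48871670, minus strand for Irgm1 and chr11:58183593-58183892, plus strand for Gm12250. The first of the Tnfrsf9 windows, at chr4:150919905-150920204, plus strand, is shown for contrast and has no match to either motif, while the other Tnfrsf9 window held 1 GAS. Windows of other higher genes were searched but are not shown. Those of Pdcd1 and Ifngr1 held no match to either motif, and that of Gzmb held 1 GAS.
Gbp2: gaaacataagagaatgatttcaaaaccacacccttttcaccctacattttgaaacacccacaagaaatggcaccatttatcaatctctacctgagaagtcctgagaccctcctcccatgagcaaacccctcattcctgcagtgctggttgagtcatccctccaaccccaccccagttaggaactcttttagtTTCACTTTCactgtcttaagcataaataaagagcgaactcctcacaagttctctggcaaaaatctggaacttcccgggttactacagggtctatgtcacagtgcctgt
Tgtp2: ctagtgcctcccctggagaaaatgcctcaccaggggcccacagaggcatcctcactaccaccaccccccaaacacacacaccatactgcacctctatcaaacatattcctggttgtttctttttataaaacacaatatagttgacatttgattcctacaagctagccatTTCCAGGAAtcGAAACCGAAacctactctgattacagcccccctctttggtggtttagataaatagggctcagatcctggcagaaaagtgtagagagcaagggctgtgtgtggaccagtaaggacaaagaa
Irgm1: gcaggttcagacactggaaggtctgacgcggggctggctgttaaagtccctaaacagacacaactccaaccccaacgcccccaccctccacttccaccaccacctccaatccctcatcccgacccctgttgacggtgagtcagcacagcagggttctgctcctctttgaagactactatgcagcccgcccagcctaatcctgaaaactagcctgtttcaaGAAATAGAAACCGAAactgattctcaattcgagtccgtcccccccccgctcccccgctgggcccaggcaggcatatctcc
Gm12250: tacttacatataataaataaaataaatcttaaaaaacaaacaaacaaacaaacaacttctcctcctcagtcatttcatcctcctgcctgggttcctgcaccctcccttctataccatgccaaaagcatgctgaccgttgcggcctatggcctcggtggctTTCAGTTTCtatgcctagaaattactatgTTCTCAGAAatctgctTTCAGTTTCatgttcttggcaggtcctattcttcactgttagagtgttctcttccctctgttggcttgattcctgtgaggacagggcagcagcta
Tnfrsf9: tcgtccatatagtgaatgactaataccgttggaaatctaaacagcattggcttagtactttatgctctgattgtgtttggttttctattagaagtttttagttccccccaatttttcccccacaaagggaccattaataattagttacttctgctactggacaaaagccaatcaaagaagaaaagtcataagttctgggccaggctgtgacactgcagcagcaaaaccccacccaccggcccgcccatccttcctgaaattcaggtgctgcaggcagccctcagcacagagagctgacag
Gbp2 had 1 ISRE core, Irgm1 2 that share bases, Tgtp2 1 beside 1 GAS, and Gm12250 2 with 1 GAS between them, and in none of them did an ISRE core overlap a GAS. Of 27025 genes with a window, 9.76% held an ISRE core and 9.55% a GAS. Of the 35 interferon-inducible GTPase and antiviral genes above background with a window, whatever their direction, 20 (57.1%) held an ISRE core and 25.7% a GAS, so a match is common among such genes. Of 423 genes with a window that were above background and higher on all LME-sEV arrays, 54 (12.8%) held an ISRE core, against 18 of 295 (6.1%) of those lower on all of them and 8.8% of all 5230 genes above background with a window. For the GAS the shares were 9.46%, 6.78% and 8.7%. These are descriptions of letters and not of bound sites.

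Receptor and signalling genes of the interferon pathway included Ifngr1, the ligand-binding chain of the interferon gamma receptor. Ifngr1 read 11.73, 10.95 and 9.78 after HCME-sEVs and 13.03, 13.31 and 13.36 after LME-sEVs. The log2 difference was 2.41 ± 0.47, or 1.89 without HCME-sEV array 3, and passed in the fit over all 18 arrays (adjusted p = 0.0267) but not with a weight for each subset (adjusted p = 0.0902). Its partner chain Ifngr2 stood at -0.81 (-1.14). Usp18, a feedback inhibitor of the type I receptor, read 8.15, 8.24 and 7.98 against 9.09, 9.84 and 9.90, a difference of 1.49 (1.42 without that array). Of 14 signalling factors above background all LME-sEV arrays were higher in 3 and lower in 0, with a median of 0.29 (0.25). Of 34 antiviral genes above background (50 measured of 53), they were higher in 9 and lower in 0, with a median of 0.42 (0.33). Over all probe sets above background these shares were 7.73% and 5.71% and the median 0.05 (0.01). Bst2 (tetherin), which holds budding viruses at the cell surface, read 8.27, 9.07 and 8.14 against 11.35, 10.99 and 9.30, a difference of 2.05 (1.88). Oas1g, an oligoadenylate synthetase, differed by 1.66 (1.43) and Ifi35 by 1.96 (1.37). Other antiviral genes had overlapping groups, with Isg20 at 1.30 (1.04) and Ifit1 at 0.49 (0.55). Isg15 and Rsad2 had means below background. Xaf1 read 8.90, 8.74 and 7.89 against 6.58, 7.55 and 7.95, a difference of -1.15 (-1.46).

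Genes of MHC class I presentation had the next highest median, 0.67 over 21 members above background (0.50 without HCME-sEV array 3), with all LME-sEV arrays higher in 6 and lower in 1 (7.73% and 5.71% over all above background). The 6 were Psme1 and Psme2, which form the proteasome activator PA28, the immunoproteasome subunit gene Psmb10, and H2-T10, H2-T22 and H2-M3 of the nonclassical class I genes, whose sequences are alike enough that probes may be shared. Psme2 read 13.54, 13.51 and 12.17 against 14.71, 14.74 and 13.98, a log2 difference of 1.40 (0.95). Tap2, one chain of the peptide transporter, was the lower one at -0.50 (-0.55), and its partner Tap1 stood at 0.20 (0.10). The mean of Tap2 was close to background. The light chain B2m stood at 0.10 (-0.08) on arrays where it read 17.47 to 18.21. Of all 26 listed members 23 were measured.

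**Figure D4:**
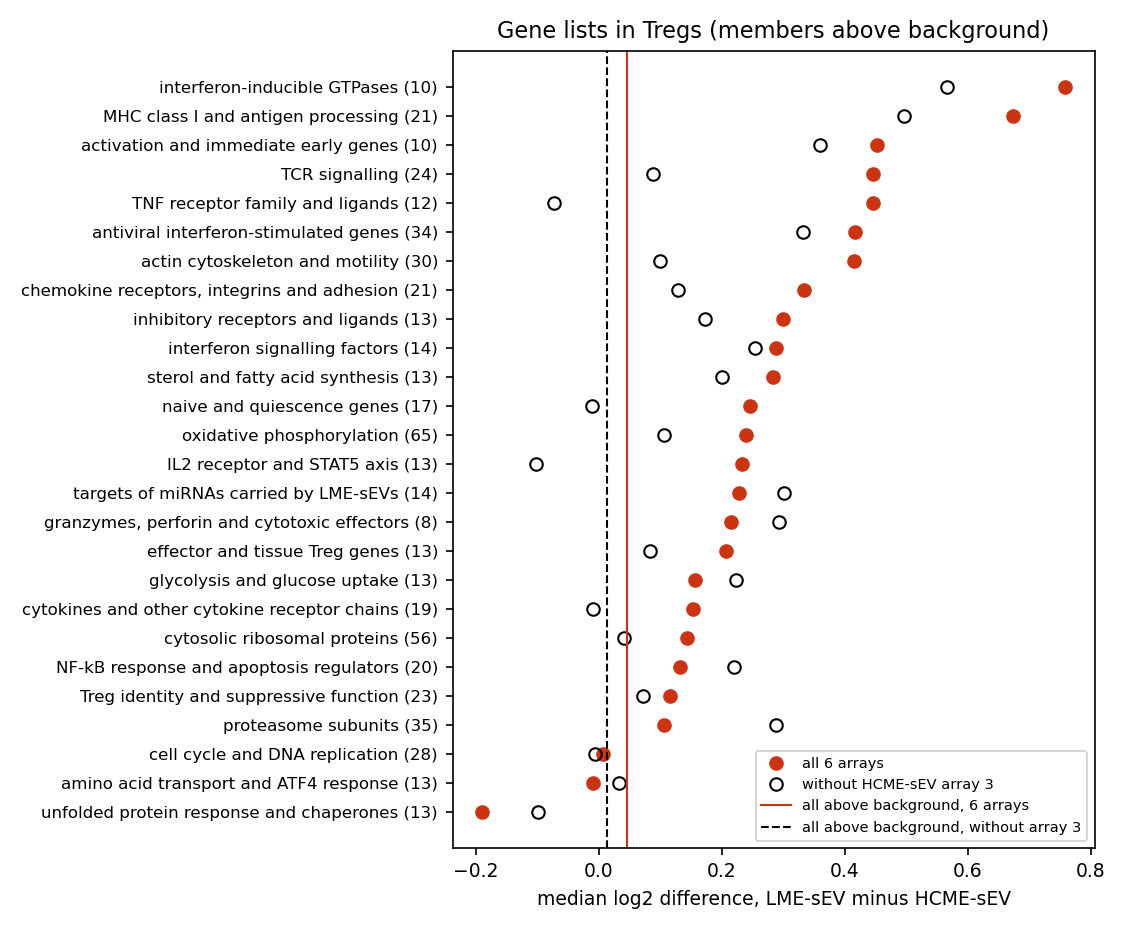
Median log2 difference between LME-sEVs and HCME-sEVs in Tregs (horizontal axis) for each pathway list, leaving out the genes the study named on these arrays (number of members above background in brackets), with all 6 arrays (filled) and without HCME-sEV array 3 (open); vertical lines give the medians over all probe sets above background. The interferon-inducible GTPases (0.76 and 0.57) and MHC class I genes (0.67 and 0.50) lay farthest to the right in both, while the TNF receptor list crossed 0.

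Activation and immediate early genes (10 above background) had a median of 0.45, and 0.36 without HCME-sEV array 3, above that of the antiviral genes. All LME-sEV arrays were higher in 1 (Egr2) and lower in 0. Over all probe sets above background these shares were 7.73% and 5.71%, and the median was 0.05 (0.01). Several other lists moved with that array. TCR signalling genes above background (24) had a median of 0.44, and 0.09 without that array, with Vav1 at 2.47 and 1.24. Actin genes (30) had 0.41 and 0.10. The IL2 receptor and STAT5 list (13) had 0.23 and -0.10, and Il2rb, the beta chain of the IL2 receptor, went from 1.74 to -0.15 because it read 5.2 on HCME-sEV array 3 and 10.51 or more on the other HCME-sEV arrays. Of the 13 genes of this list, all LME-sEV arrays were higher in 2 and lower in 2, beside 7.73% and 5.71% over all above background. The higher ones were Tnfrsf18, at 1.84 (1.27 without HCME-sEV array 3), and Stat5a, at 0.72 (0.57). The lower ones were Bcl2, at -0.52 (-0.395), and Ccnd3, at -0.90 (-0.64). Stat5b, with a mean below background, was higher on all LME-sEV arrays at 8.24, 7.68 and 7.96 against 6.57, 6.96 and 6.44. Oxidative phosphorylation genes (65) had 0.24 and 0.11, with all LME-sEV arrays higher in 10 and lower in 3 (7.73% and 5.71% over all above background), and cytosolic ribosomal protein genes (56) had 0.14 and 0.04, with 9 and 2. Cell cycle genes (28) had 0.01 and -0.01. The lowest value of any list member above background was that of Myc, the growth-promoting transcription factor, which read 11.70, 13.29 and 11.51 against 7.92, 11.80 and 9.71, a log2 difference of -2.36 ± 0.97 (-2.69 without that array) with overlapping groups. Treg identity and suppressive genes (23) had medians of 0.12 and 0.07.

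MicroRNAs can be carried by vesicles and lower the targets that match their seed. The study described several in LME-sEVs, among them miR-150 and miR-378a. Another 5 are shown from RefSeq (GRCm38.p6) with the seed, bases 2 to 8, in capitals. The list of known targets described below was not matched to these seeds here.
miR-210-3p: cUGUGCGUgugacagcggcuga
miR-27a-3p: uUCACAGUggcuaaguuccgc
miR-146a-5p: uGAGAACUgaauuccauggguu
miR-21a-5p: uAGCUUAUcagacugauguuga
miR-155-5p: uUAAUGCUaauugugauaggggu
No 2 of these 5 seeds are the same. Of 26 listed targets 23 were measured and 14 were above background in Tregs. Their median log2 difference was 0.23 (0.30 without HCME-sEV array 3), with all LME-sEV arrays higher in 2 (Tab2 and Egr2) and lower in 0. Over all probe sets above background these shares were 7.73% and 5.71%, and the median was 0.05 (0.01). Inpp5d, which encodes the phosphatase SHIP1 and is a target of miR-155-5p, stood at 1.40 (1.36), and Pdcd4, a target of miR-21a-5p, at 0.16 (0.07). Below background, Tob2 was lower on all LME-sEV arrays at -0.70.

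Since no gene met the call rule, the genes with the largest values were taken by a condition chosen after their values were seen. They lay above background, had groups that do not overlap, and were past 2-fold at an unadjusted p under 0.05 both with and without HCME-sEV array 3. Symbols of predicted genes, such as Gm12250, were left out. The condition was met by 135 genes higher and 41 lower after LME-sEVs. The 15 highest ran from 2.47 to 5.43 on the log2 scale and the 15 lowest from -3.27 to -1.86, with adjusted p from 0.431 to 0.800. The highest was Apbb2, an adaptor that binds the amyloid precursor protein, which read 8.35, 5.30 and 5.29 against 13.38, 10.65 and 11.20, a difference of 5.43 (4.92 without HCME-sEV array 3). Zscan2, a zinc finger gene, read 8.52, 8.63 and 9.22 against 12.26, 11.42 and 11.88, a difference of 3.06 ± 0.31 (3.28 without that array). Paxbp1 differed by 3.96 (3.69) and Fam193a by 2.76 (2.25). Several owed much of their size to HCME-sEV array 3, as Clk4, a kinase of splicing factors, at 11.11, 11.00 and 6.60 against 11.71, 12.56 and 13.41, and Smdt1, a subunit of the mitochondrial calcium uniporter, at 2.51 and 1.25.

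Among the lowest, Ints6l read 10.76, 10.73 and 13.23 after HCME-sEVs and 8.89, 7.59 and 8.43 after LME-sEVs. Its log2 difference was -3.27 ± 0.71, and -2.44 without HCME-sEV array 3. Tia1, an RNA-binding protein of stress granules, read 10.17, 9.57 and 11.77 against 7.51, 7.92 and 7.93, a difference of -2.72 (-2.08). Dlat, a component of the pyruvate dehydrogenase complex, differed by -2.69 (-1.81), the citrate carrier Slc25a1 by -1.90 (-2.16), Cox15, which makes the heme of cytochrome oxidase, by -2.07 (-1.68), and the co-chaperone Bag5 by -2.12 (-2.31). The 3 pancreatic amylase genes Amy2a2, Amy2a4 and Amy2a5, at -2.60, -2.89 and -1.86, are near-identical copies, so their probe sets are not separate evidence.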

How the data were processed

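RNA of sorted cells was measured on Clariom S mouse arrays, and the authors deposited log2 probe set signals processed in the Transcriptome Analysis Console. Their normalization and genome build are not given in the sources used here. Which RNA labelling kit was used is not settled, since that of the labels is not the one of the methods. If each array was scaled to the others, a change shared by most transcripts would not be seen. The platform annotation gave 1 symbol for 19572 of 22206 probe sets, several for 0 and none for 2634, and the brightest probe set stood for a gene. The number of arrays limits the precision.

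The 6 Treg arrays were fitted in R 4.3.3 by lmFit and eBayes of limma 3.58.1 (LME-sEVs minus HCME-sEVs, no filter). All probe sets entered the Benjamini-Hochberg adjustment, and a call needed an adjusted p under 0.05 and an absolute log2 difference above 1, the study's thresholds. The study reported regulated Treg genes at its thresholds, where 0 were called here, and the reason was not tested. Effects in Tregs were compared with those in CD4+ and CD8+ T cells in one fit to all 18 arrays, with the same limit on the adjusted p. Background was the 95th percentile of receptor probe set means. Standard errors are those of limma. Gene lists (39) were described by counts and medians. The fits were tested on simulated data.

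The members, lists and rules were chosen with earlier results of these data known. Genes were named if they were among the 15 largest calls in each direction (none was called), named for Tregs by the study, the list member with the lowest p, or a sorting marker. Genes named by the added condition, list members whose groups do not overlap, genes called over all 18 arrays and others cited for their values were chosen after their values were seen. Alternatives were quantile and cyclic loess normalization, centring above background, a filter on dim probe sets, trend and robust variance, array weights, the replicate block, a single fit to all 18 arrays, the methods' t-test (named there for comparisons in general, with Benjamini-Hochberg adjustment added here), no fold threshold, another background and each array left out. Added after seeing the data were the fit over all 18 arrays with a weight for each subset, that without HCME-sEV array 3, and that with both changes.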

Additional observations from a re-analysis of the deposited data

Results flagged for a closer look

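In 3 probe sets the effect of LME-sEVs differed between subsets by limma's contrast over all 18 arrays. The Treg effect on Tnfrsf9 exceeded that in CD4+ T cells by 4.23 (adjusted p = 0.0221) and that in CD8+ T cells by 4.62 (adjusted p = 0.0128) on the log2 scale, with all 3 LME-sEV arrays above all HCME-sEV arrays in Tregs. The probe set with no gene symbol read 6.16, 6.85 and 7.22 after HCME-sEVs and 8.59, 9.39 and 9.18 after LME-sEVs in Tregs, and its Treg effect exceeded the CD4+ effect by 3.42 (adjusted p = 0.00423) and the CD8+ effect by 2.97 (adjusted p = 0.0128). For H3f3b the Treg effect exceeded the CD4+ effect by 2.04 (adjusted p = 0.00801). Groups of 3 arrays are too small for a check of single outlying arrays.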

How the results depend on the processing

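The count of 0 calls in Tregs stayed at 0 under quantile and cyclic loess normalization, centring above background, the filter on dim probe sets, trend and robust variance, array weights, the methods' t-test, no fold threshold and with each array left out (0 to 0 calls, higher 0 to 0, lower 0 to 0). It was 26 (18 higher, 8 lower) in the fit over all 18 arrays and 4 (3 higher, 1 lower) with a weight for each subset. Without HCME-sEV array 3 it was 44 (17 higher, 27 lower) unweighted and 5 (2 higher, 3 lower) weighted. All but the first of these fits were chosen after seeing the data. Probe sets whose effect differed from that in CD4+ T cells were 3, and 11 after quantile normalization within each subset, and 3 to 139 with each Treg array left out (139 without HCME-sEV array 1, 44 without 2, 11 without 3, 5 without LME-sEV array 1 and 17 without LME-sEV array 3). Those that differed from CD8+ T cells were 2, and 5 after quantile normalization, and 1 to 11 with each Treg array left out (6, 3 and 4 without HCME-sEV arrays 1, 2 and 3, and 11, 1 and 6 without LME-sEV arrays 1, 2 and 3). In all of these Tnfrsf9 kept adjusted p values of 0.00858 to 0.0391. The cause of these changes was not tested. The replicate numbers did not pair the arrays (correlations of deviations -0.06, 0.04 and 0.05). With the replicate block 0 Treg probe sets were called, 5 and 10 differed from CD4+ and CD8+ T cells, and H3f3b no longer passed. The receptor background was 7.21 at the 90th percentile. Among the single genes recomputed under each alternative, these changed sign. Ikzf2 stood at -0.068 after quantile normalization, -0.0033 after centring above background and -0.047 with array weights, Cd8a at -0.083 and -0.0065 under the last 2, and B2m at -0.02 after centring. With each array left out, the range was -0.20 to 0.43 for Ikzf2, -0.19 to 0.51 for Il2ra, -0.31 to 0.25 for Cd8a, -0.082 to 0.55 for Gbp3, -0.032 to 1.73 for Tnfsf8, -0.32 to 1.12 for Tnf, -0.38 to 0.12 for Gzma, -0.76 to 0.052 for Nkg7, -0.22 to 0.55 for Tap1, -0.08 to 0.29 for B2m and -0.15 to 2.85 for Il2rb. In the fit over all 18 arrays without HCME-sEV array 3 they were -0.20 for Ikzf2, -0.10 for Il2ra, -0.07 for Cd8a, -0.082 for Gbp3, -0.08 for B2m, -0.032 for Tnfsf8, -0.32 for Tnf and -0.15 for Il2rb. Without HCME-sEV array 3, medians of the TNF receptor, IL2 receptor, naive, cytokine, cell cycle, plasma-cell and Treg marker lists turned negative, and those of the amino acid and NK-cell lists positive.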
